A study of Mus musculus with 6 samples.

Results

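The report follows 10 genes whose products modify, fold and crosslink collagen: the prolyl 4-hydroxylase alpha subunits P4ha1, P4ha2 and P4ha3, the lysyl hydroxylases Plod1, Plod2 and Plod3, the lysyl oxidases Lox and Loxl2, and the collagen chaperones Serpinh1 and Fkbp10. They were taken by symbol, as genes of known function chosen with earlier results of these data known, and all 10 were found among the 29616 genes of the table. RNA sequencing was performed on bone cells of C57BL/6 mice, with 3 control libraries and 3 libraries of mice given dexamethasone, a synthetic glucocorticoid. By the study's methods, treatment began at 8 weeks of age with 0.08 µg/g daily and lasted 4 weeks, and the sequenced cells were an Osteocalcin-positive fraction of demarrowed bone. Controls are labelled only as such, and the study describes saline as the control treatment for other mice of this dexamethasone model. The labels name no transgene, and neither they nor the methods state whether each library came from 1 mouse or from pooled mice, so the p-values measure the spread between these libraries, which may be partly technical. Between 72596611 and 89910728 reads were counted per library, and no pair of replicates was alike enough to be 1 library deposited again (chi-square per degree of freedom from 3.52 to 29.6).

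Collagen chains are modified in the endoplasmic reticulum before they fold. Prolyl 4-hydroxylases convert proline to hydroxyproline, which gives the triple helix its heat stability, and lysyl hydroxylases convert lysine to hydroxylysine, which takes part in crosslinks and carries sugars. The chaperones HSP47 (encoded by Serpinh1) and FKBP65 (encoded by Fkbp10) bind procollagen as it folds, and lysyl oxidases act outside the cell, where they oxidize lysine and hydroxylysine so that fibrils become crosslinked. Inherited loss of SERPINH1, FKBP10 or PLOD2 causes brittle bone disease in humans.

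The 10 genes did not move together. Of the 10, 5 were lower with dexamethasone (P4ha1, P4ha3, Plod2, Serpinh1 and Fkbp10), 2 were higher (Lox and Plod3) and 3 did not pass the test (P4ha2, Plod1 and Loxl2), at an adjusted p-value under 0.05 by limma. Log2 ratios below are log2 fold changes of dexamethasone over control. Among all 17442 genes tested, 35.2% were lower, 37.2% higher and 72.5% changed in either direction by this rule, so that 7 of 10 is a share close to the background. When the log2 ratio also had to reach 1 or -1, Plod2 was the 1 gene of the 10 that was differentially expressed, against 22.3% of all genes (11.7% higher, 10.6% lower). In bulk RNA, fewer cells of a type and less RNA per cell cannot be told apart, which holds for each value below. The groups did not overlap for 8 of the 10 genes, against 74.7% of all tested genes. The median log2 ratio of the 10 genes was -0.54, beside 0.00071 over all tested genes, whose quartiles were -0.45 and 0.44.

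**Figure D1:**
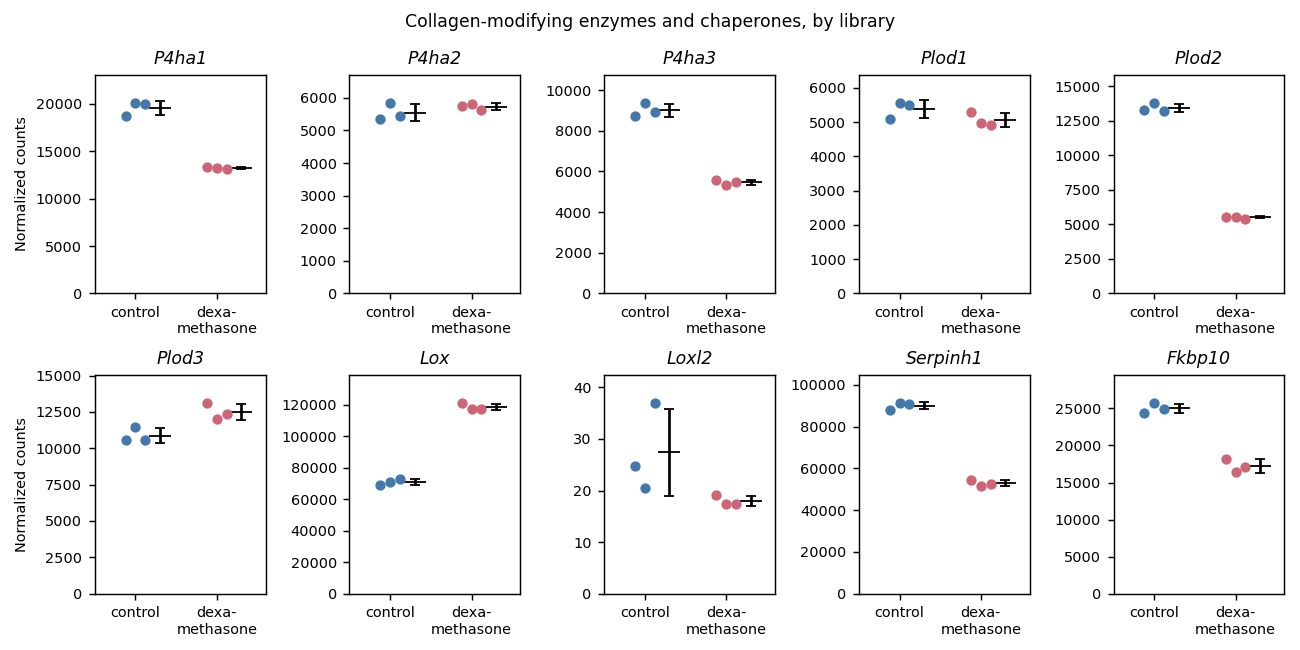
Normalized counts (vertical axes, each from 0) of the 10 genes in the 3 control (blue) and 3 dexamethasone (red) libraries, with black marks for the mean and SD of each group. Every dexamethasone point lies below every control point for P4ha1, P4ha3, Plod2, Loxl2, Serpinh1 and Fkbp10 and above for Plod3 and Lox, whereas the points of P4ha2 and Plod1 overlap.

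Prolyl 4-hydroxylase is a tetramer of alpha subunits, which carry the active site, and beta subunits (P4hb, protein disulfide isomerase). P4ha1 encodes the alpha subunit that is most widely expressed. Its normalized counts were 18674 (replicate 1), 20084 (replicate 2) and 19944 (replicate 3) in control and, in the same order, 13369, 13250.4 and 13155 with dexamethasone. All dexamethasone libraries were below all control libraries. Means were 19567 ± 776 and 13258 ± 107 (SD, n = 3 each), which is a log2 ratio of -0.56 (SE 0.036, adjusted p by limma 5.37e-13). P4ha3, an alpha subunit of lower expression in most tissues, had normalized counts of 8734, 9365 and 8903 in control against 5579, 5349.9 and 5459 with dexamethasone. It also fell, with a log2 ratio of -0.72 (SE 0.0369, adjusted p by limma 5.57e-15), and again the groups were apart. P4ha2 behaved differently. Its normalized counts were 5352, 5842 and 5434 in control against 5762, 5813 and 5629 with dexamethasone, so that the groups overlapped. Its log2 ratio was 0.05 (95% interval -0.03 to 0.13, adjusted p by limma 0.251). It turned to -0.06 with an equal total for every library, a scaling that moved the median of all genes to -0.11, and to -0.15 after quantile normalization (adjusted p by limma 0.000276), where that median was -0.08.

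The levels of different genes were compared per kilobase of exon. The summed level of the 3 alpha subunits was 8516 ± 313 (SD, n = 3) normalized counts per kilobase in control and 5884 ± 59.96 (SD, n = 3) in dexamethasone libraries. P4ha1 made up 55.9% ± 0.685 (SD, n = 3) of this sum in control and 54.8% ± 0.192 (SD, n = 3) in dexamethasone libraries. P4ha2 made up 10.4% ± 0.233 in control and 15.6% ± 0.246 with dexamethasone, and P4ha3 33.7% ± 0.468 and 29.6% ± 0.423 (SD, n = 3 each). The shares of each subunit did not overlap between the groups, and an exact two-sided permutation test gave p = 0.1 for each, the smallest value that 3 against 3 libraries allow. The sizes of these shares depend on the length used, since P4ha2 has 6239 exon bases but a longest transcript of 3060. With the longest transcript, P4ha1, P4ha3 and P4ha2 had 4840, 3746 and 1811 normalized counts per kilobase in control. With dexamethasone they had 3279, 2273 and 1874. P4ha1 then still led, but was below P4ha3 and P4ha2 together. The beta subunit gene P4hb rose from 70812 ± 1355 to 80368 ± 1743 normalized counts (SD, n = 3 each), a log2 ratio of 0.18 (adjusted p by limma 0.000248). The ratio of the summed alpha subunits to P4hb, both per kilobase, was 0.336, 0.348 and 0.347 in the control libraries and 0.208, 0.213 and 0.207 in the dexamethasone libraries. This ratio was thus lower in every dexamethasone library than in any control library (exact two-sided permutation p = 0.1). P4hb also serves as a general disulfide isomerase outside this enzyme.

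The promoters of the alpha subunit genes are shown because P4ha1 and P4ha3 fell while P4ha2 did not pass the test, together with that of Serpinh1, which also fell. Promoter sequences from RefSeq (GRCm38.p6) matched 6 of the 10 genes, and the 250 bases before the start of transcription were read 5′ to 3′ on the gene's strand. Capitals mark ACGTG, a form of the core of the hypoxia response element, on either strand. This motif was chosen because prolyl 4-hydroxylase genes are known targets of the hypoxia-inducible factor. Other forms of the core were not searched. The sequences of P4ha1 (chr10:59323046-59323295, plus strand), P4ha2 (chr11:54100674-54100923, plus strand), P4ha3 (chr7:100285270-100285519, plus strand) and Serpinh1 (chr7:99353240-99353489, minus strand) are as follows.
P4ha1: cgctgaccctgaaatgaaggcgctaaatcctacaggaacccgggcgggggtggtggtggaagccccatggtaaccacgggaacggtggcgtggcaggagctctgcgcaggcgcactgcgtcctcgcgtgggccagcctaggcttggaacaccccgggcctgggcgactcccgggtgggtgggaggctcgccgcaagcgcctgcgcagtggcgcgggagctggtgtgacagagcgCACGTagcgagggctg
P4ha2: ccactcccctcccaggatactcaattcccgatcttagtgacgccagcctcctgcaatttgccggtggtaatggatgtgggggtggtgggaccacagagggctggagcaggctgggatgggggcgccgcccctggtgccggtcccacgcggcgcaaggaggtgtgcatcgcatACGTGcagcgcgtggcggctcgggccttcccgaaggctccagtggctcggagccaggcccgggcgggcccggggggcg
P4ha3: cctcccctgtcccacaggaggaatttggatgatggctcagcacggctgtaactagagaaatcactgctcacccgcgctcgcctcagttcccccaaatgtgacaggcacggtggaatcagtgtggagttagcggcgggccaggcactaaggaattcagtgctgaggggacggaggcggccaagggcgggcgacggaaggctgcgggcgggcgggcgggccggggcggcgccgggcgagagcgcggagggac
Serpinh1: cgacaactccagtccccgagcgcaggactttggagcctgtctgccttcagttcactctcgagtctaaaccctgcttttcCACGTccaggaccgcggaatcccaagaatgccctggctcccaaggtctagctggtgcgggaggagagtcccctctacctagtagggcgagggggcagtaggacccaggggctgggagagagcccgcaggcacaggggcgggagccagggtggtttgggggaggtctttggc
ACGTG was found once each in P4ha1, P4ha2 and Serpinh1, beginning 16, 78 and 171 bases before the start. It was also found once in Plod3, 54 bases before the start, but not in P4ha3 or Plod1. Thus 4 of the 6 windows held it, against 16.6% of all 32851 promoter windows of that length. The genes with a match included 1 that rose, 2 that fell and 1 that did not pass the test. The glucocorticoid receptor half-site AGAACA, searched on both strands, was in 0 of the 6 windows and in 16.1% of all windows. A match describes letters in a window and is not a binding site.

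Plod2, a lysyl hydroxylase gene, had the largest log2 ratio in size of the 10 genes. Plod2 encodes LH2, which hydroxylates lysines of the collagen telopeptides and thereby sets the type of crosslink formed in bone. Its normalized counts were 13298 (replicate 1), 13777 (replicate 2) and 13172 (replicate 3) in control and, in the same order, 5551, 5559 and 5412 with dexamethasone. The dexamethasone libraries were all less than the lowest control library by more than the spread within either group. Means fell from 13416 ± 319 to 5507 ± 82.9 (SD, n = 3 each), which was 2.44-fold lower, with a log2 ratio of -1.28 (SE 0.0348, adjusted p by limma 1.03e-20). It was also called by edgeR and by DESeq2 on the recovered reads.

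Plod1, which encodes the hydroxylase of lysines in the triple helix, had normalized counts of 5089.7, 5559 and 5507 in control against 5312, 4988 and 4907 with dexamethasone. The groups overlapped, and its log2 ratio of -0.09 did not pass the test (adjusted p by limma 0.0631). Whether this small difference passed the test depended on the setting, and it passed in 6 of 16 alternatives. The log2 ratio was -0.28 after quantile normalization (adjusted p by limma 2.41e-07) and -0.20 with equal totals (adjusted p by limma 2.3e-05). It was -0.11 with edgeR (adjusted p 0.00488) and -0.10 with DESeq2 (adjusted p 0.0356), and by limma -0.13 without control replicate 1 (adjusted p 0.0142) and -0.12 without dexamethasone replicate 1 (adjusted p 0.00733). Plod3 encodes a hydroxylase that also transfers sugars to hydroxylysine. Its normalized counts were 10536, 11482 and 10580.3 in control against 13088, 12022 and 12355 with dexamethasone, a log2 ratio of 0.20 (SE 0.04, adjusted p by limma 8.66e-05). Every dexamethasone library was above every control library, but after quantile normalization the log2 ratio was 0.03 (adjusted p by limma 0.355). In the GENCODE M21 annotation, 11.7% of the exon bases of Plod3 lie opposite exons of another gene (Znhit1). The same holds for 6.42% of those of Plod2, 6.58% of those of Fkbp10 and 5.57% of those of Loxl2. By the study's methods the library kit was stranded, but whether the authors' count used the strand is not given in the sources used here.

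Per kilobase, Plod2 made up 44.4%, 43.2% and 43.6% of the summed level of the 3 genes in the control libraries and 21.9%, 23.3% and 22.5% in the dexamethasone libraries. Plod3 made up 42.0%, 42.9% and 41.8% in control and 61.5%, 60.1% and 61.3% in dexamethasone libraries. With all exons as the length, the control libraries thus held about equal levels of Plod2 and Plod3, whereas Plod3 led in every dexamethasone library. With the longest transcript as the length, Plod2 stood above Plod3 in every control library, and Plod3 still led with dexamethasone. Plod1 made up 14.0% ± 0.502 in control and 16.5% ± 0.235 with dexamethasone (SD, n = 3 each). The differences in share, of -21.2 percentage points for Plod2 and 18.7 for Plod3, had an exact two-sided permutation p of 0.1 each, the smallest possible here. The summed level of the 3 genes was 5689 ± 199.8 (SD, n = 3) normalized counts per kilobase in control and 4534 ± 154 (SD, n = 3) in dexamethasone libraries.

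**Figure D2:**
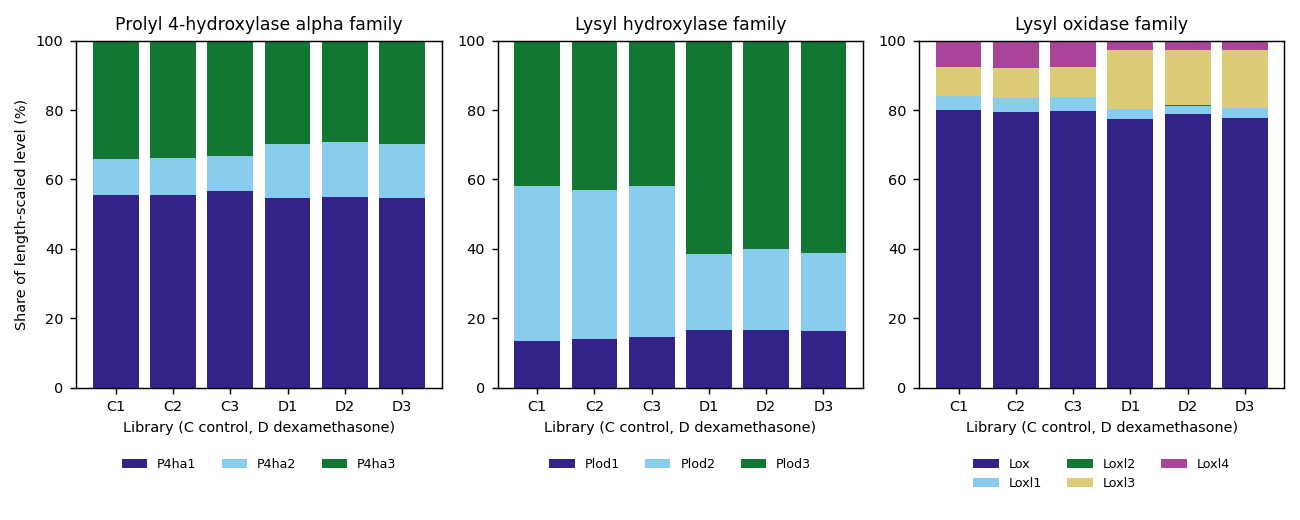
Share of each gene in the length-scaled level of its family (vertical axis, percent) for control (C1 to C3) and dexamethasone (D1 to D3) libraries. In the middle panel Plod2 takes between 43.2% and 44.4% in control and between 21.9% and 23.3% in dexamethasone libraries, and in the right panel the part taken by Loxl3 is larger and that of Loxl4 smaller in every dexamethasone library; Loxl2 is too small to be seen.

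Both collagen chaperones fell. Serpinh1, whose product HSP47 binds the folded procollagen helix and accompanies it to the Golgi, had normalized counts of 87958 (replicate 1), 91156 (replicate 2) and 90871 (replicate 3) in control and, in the same order, 54350.2, 51800.4 and 52587 with dexamethasone. No dexamethasone library reached the level of a control library. The log2 ratio was -0.77 (SE 0.0396, adjusted p by limma 6.59e-15), which was 1.70-fold lower. Fkbp10, which encodes a prolyl isomerase that also assists the activity of LH2, had normalized counts of 24407, 25681 and 24915 in control against 18182, 16407 and 17084 with dexamethasone. The groups were apart, and Fkbp10 was 1.45-fold lower, with a log2 ratio of -0.54 (SE 0.0389, adjusted p by limma 5.6e-12). Neither change reached the log2 ratio of 1 in any of the alternatives tried, whose values ran from -0.88 to -0.75 for Serpinh1 and from -0.72 to -0.50 for Fkbp10.

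Lox was the gene that rose most among the 10. It encodes lysyl oxidase, a copper enzyme secreted as a proenzyme. Its normalized counts were 69176 (replicate 1), 71273 (replicate 2) and 72741 (replicate 3) in control and, in the same order, 120935, 117104 and 117584 with dexamethasone. The dexamethasone libraries were all well above the control libraries, with means of 118541 ± 2087 (SD, n = 3) against 71064 ± 1792 (SD, n = 3). The log2 ratio was 0.74 (SE 0.0413, adjusted p by limma 3.4e-14), a 1.67-fold rise. Loxl2, which encodes an oxidase best known for crosslinking basement membrane collagen, was by contrast hardly detected, with reads numbering 27, 21 and 42 in control and 20, 16 and 15 with dexamethasone. Every dexamethasone library had fewer normalized counts (17.4 to 19.1) than any control library (20.5 to 36.9), yet the control libraries varied widely. Its log2 ratio was -0.54 (95% interval -1.16 to 0.08, adjusted p by limma 0.108), so no difference was shown at this depth. Leaving out 1 library moved it to between -0.72 (without control replicate 2) and -0.31 (without control replicate 3), and it passed in none of these fits, with adjusted p-values by limma from 0.0547 to 0.442.

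The other lysyl oxidase genes went in different directions. Loxl3 rose from 7241 ± 333 to 24351 ± 1445 normalized counts (SD, n = 3 each), a log2 ratio of 1.75 (adjusted p by limma 8.76e-22), and Loxl4 fell from 6017 ± 218 to 3594 ± 114 (SD, n = 3 each), a log2 ratio of -0.74 (adjusted p by limma 1.05e-14). Loxl1, an oxidase associated with elastic fibres, had a log2 ratio of 0.10 (adjusted p by limma 0.0563). Per kilobase, Lox made up 79.7% ± 0.265 (SD, n = 3) of the family in control and 78.0% ± 0.719 (SD, n = 3) in dexamethasone libraries. The summed level of the family was 18659.7 ± 504 normalized counts per kilobase in control and 31796 ± 813 with dexamethasone (SD, n = 3 each). The difference in the share of Lox was -1.67 percentage points and turned to 0.974 after quantile normalization. Loxl3 made up 8.43% ± 0.207 in control and 16.6% ± 0.59 with dexamethasone (SD, n = 3 each), with groups apart (exact two-sided permutation p = 0.1).

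Ranked per kilobase in the control libraries, Serpinh1 had the highest level, 36838 ± 724 (SD, n = 3) normalized counts per kilobase, followed by Lox with 14873 ± 375 (SD, n = 3), Fkbp10, P4ha1, P4ha3, Plod2, Plod3, P4ha2, Plod1 and Loxl2. Plod2 and Plod3 were the only neighbours in this order whose control libraries overlapped. With dexamethasone Lox led with 24810 ± 437 (SD, n = 3), above Serpinh1 with 21659 ± 534 (SD, n = 3), and Plod3 stood above P4ha3 and Plod2. No neighbours overlapped among the dexamethasone libraries. With the length of the longest transcript in place of all exons, Lox still led with dexamethasone and Serpinh1 in control, whereas P4ha3 and Plod2 overlapped in control, and P4ha2 stood above Plod2 and Plod3 above P4ha1 with dexamethasone. Plod2 and Plod3 then no longer overlapped in control, with 3663 ± 87.2 and 3313 ± 163 (SD, n = 3 each).

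The main substrate of these enzymes in bone is type I collagen, and both of its genes fell, Col1a1 with a log2 ratio of -1.88 and Col1a2 with one of -1.05. To ask whether the enzymes fell as much as the collagen transcripts, each gene was expressed relative to the summed normalized counts of Col1a1 and Col1a2 in the same library. That sum fell by 1.38 on the log2 scale. On this relative scale 9 of the 10 genes were higher and 0 lower with dexamethasone at an adjusted p-value under 0.05 by limma, and 4 of them (P4ha2, Plod1, Plod3 and Lox) also passed the fold requirement. Because the reference itself fell, 88% of all tested genes were higher and 3.19% lower on this scale (91.2% in either direction), and 71.9% and 1.67% with the fold requirement (73.6%), so these counts are not particular to the 10 genes. Lox had 35.5, 34.7 and 35.0 normalized counts per 1000 of type I collagen in the control libraries and 145, 156 and 158 in the dexamethasone libraries, a relative log2 ratio of 2.12 (SE 0.0494, adjusted p by limma 3.75e-34). Over all tested genes the median relative log2 ratio was 1.39, with quartiles of 0.93 and 1.83. Below that lower quartile, Serpinh1 and P4ha3 had relative log2 ratios of 0.62 and 0.66. Plod2 had the smallest, with 6.82, 6.70 and 6.34 normalized counts per 1000 of type I collagen in control and 6.63, 7.40 and 7.28 in dexamethasone libraries. Its groups overlapped, and its relative log2 ratio of 0.10 (95% interval -0.0032 to 0.20, adjusted p by limma 0.0624) did not pass the test. Without dexamethasone replicate 1 it was 0.15 (adjusted p by limma 0.000514), and with Col1a1 alone as the reference it was 0.60 (adjusted p by limma 5.05e-26).

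**Figure D3:**
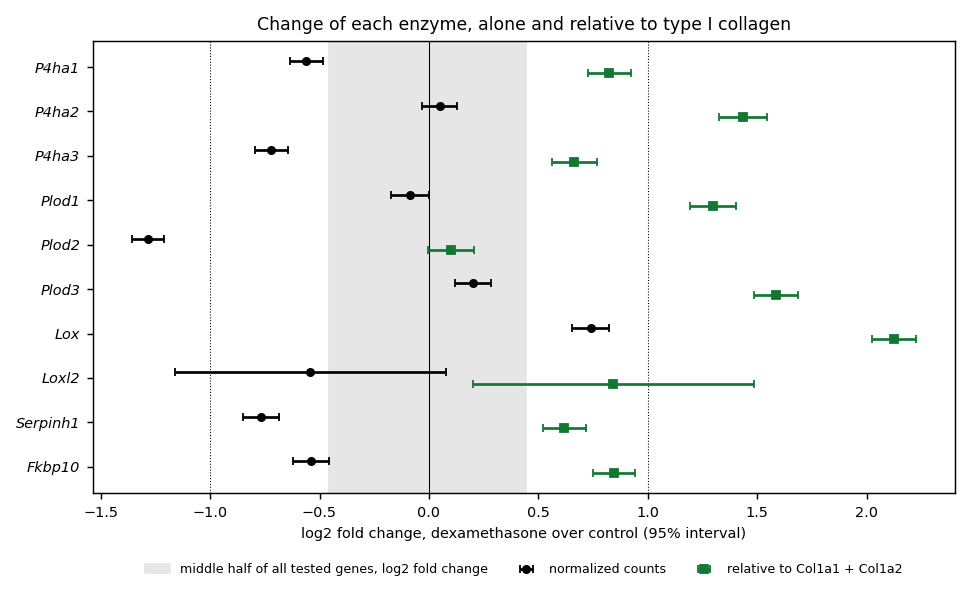
Log2 ratio of each gene (horizontal axis, dexamethasone over control, points with 95% intervals from limma) in normalized counts (black circles) and relative to the summed Col1a1 and Col1a2 (green squares). The grey band spans the quartiles of all tested genes in normalized counts (-0.45 to 0.44), and dotted lines mark 1 and -1. The band does not apply to the green squares, for which the quartiles of all tested genes are 0.93 and 1.83. Plod2 is the only black point beyond a dotted line, and its green square lies nearest to 0.

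The genes that work beside these enzymes were grouped in lists by function. Of 7 further prolyl hydroxylation genes, 6 were lower and 1 (P4hb) was higher at a limma adjusted p-value under 0.05, with a median log2 ratio of -0.48. The most abundant after P4hb were P3h4, Crtap and P3h3, which belong to complexes that modify proline and lysine in fibrillar collagens, and their log2 ratios were -0.52, -0.48 and -0.17. P3h2, chosen after its values were seen, was the 1 differentially expressed gene of this list (log2 ratio -1.45). Among 6 further lysine modification genes 5 were tested, and 2 were higher and 2 lower. Colgalt1, which adds galactose to hydroxylysine, rose by 0.23 on the log2 scale. The list's median of 0.10 turned to -0.0115 with equal totals and to -0.0538 after quantile normalization, both above the median of all genes under the same scaling (-0.11 and -0.08).

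Of 14 further folding genes, 10 were lower and 3 higher, 2 and 1 of them differentially expressed, with a median log2 ratio of -0.20. The abundant Sparc, a collagen-binding matrix protein, fell with a log2 ratio of -1.33. The general chaperones and isomerase Hspa5, Canx and Pdia3 were lower as well, with log2 ratios of -0.16, -0.11 and -0.17. Pdia6, Pdia4 and Hsp90b1, chosen after their values were seen, had log2 ratios of 0.42, 0.09 and 0.02. The last did not pass the test (adjusted p by limma 0.62). Fkbp9, an isomerase related to Fkbp10 that was chosen after its values were seen, fell with one of -0.71. Creb3l1, a transcription factor that acts on type I collagen in osteoblasts and was chosen after its values were seen, fell with a log2 ratio of -1.22, and Fkbp11, chosen likewise, rose with one of 1.58. Sparc and Creb3l1 were the 2 differentially expressed genes of this list that fell, and Fkbp11 the 1 that rose. The products of the 9 procollagen export genes serve vesicle transport out of the endoplasmic reticulum. Of these genes, 4 were lower, 0 were higher and 5 did not pass, with a median of -0.06. Sec31a, Mia3, Sec24d and Sec13 had log2 ratios of -0.25, -0.14, -0.34 and -0.05, the last with an adjusted p by limma of 0.198.

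The procollagen processing genes, whose products trim the propeptides or aid the enzymes that do, included more that rose than fell. Of 9 genes 7 were tested, and 5 were higher and 2 lower, 3 and 1 of them differentially expressed, with a median log2 ratio of 0.36. Adamts2, the procollagen N-proteinase, rose from 3971 ± 159 to 18398 ± 872 normalized counts (SD, n = 3 each), a log2 ratio of 2.21 (adjusted p by limma 2.2e-24). Bmp1, the C-proteinase that also activates lysyl oxidase, rose with a log2 ratio of 0.36 (adjusted p by limma 1e-08), and Furin with one of 0.34, whereas Pcolce, an enhancer of the C-proteinase, fell with one of -0.72. The 11 fibrillar collagen genes included 9 that were lower and 2 that were higher, 7 and 2 of them differentially expressed, with a median of -1.27. Col5a3 and Col2a1, chosen after their values were seen, were the 2 that rose. Col3a1 and Col5a2 had log2 ratios of -2.16 and -1.72.

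Among 7 genes of cofactor supply and fibre assembly, 2 were higher, 2 lower and 3 did not pass. Atp7a, which loads copper onto secreted enzymes such as lysyl oxidase and was chosen after its values were seen, rose from 4411 ± 44.7 to 6074 ± 151 normalized counts, SD over 3 libraries each (log2 ratio 0.46, adjusted p by limma 2.79e-11). The vitamin C transporter Slc23a2 had a log2 ratio of 0.07 (adjusted p by limma 0.109), Slc31a1, a copper importer, one of 0.14, Efemp2, a matrix protein needed for lysyl oxidase activation, one of -0.26, and Fbln5 one of -2.05. The list's median of 0.07 turned to -0.0474 with equal totals and -0.109 after quantile normalization, beside -0.11 and -0.08 over all genes, and to -0.00583 at a mean of at least 100 normalized counts. Of 12 hypoxia-responsive genes 11 were tested, and 7 were higher and 3 lower, 2 and 1 of them differentially expressed (median 0.33). Ldha, Pgk1, Vegfa and Egln1 had log2 ratios of 0.33, 1.16, 0.78 and 0.34. The 3 lower genes, chosen after their values were seen, were Ndrg1, Bnip3 and Pdk1, with log2 ratios of -1.65, -0.39 and -0.31.

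**Figure D4:**
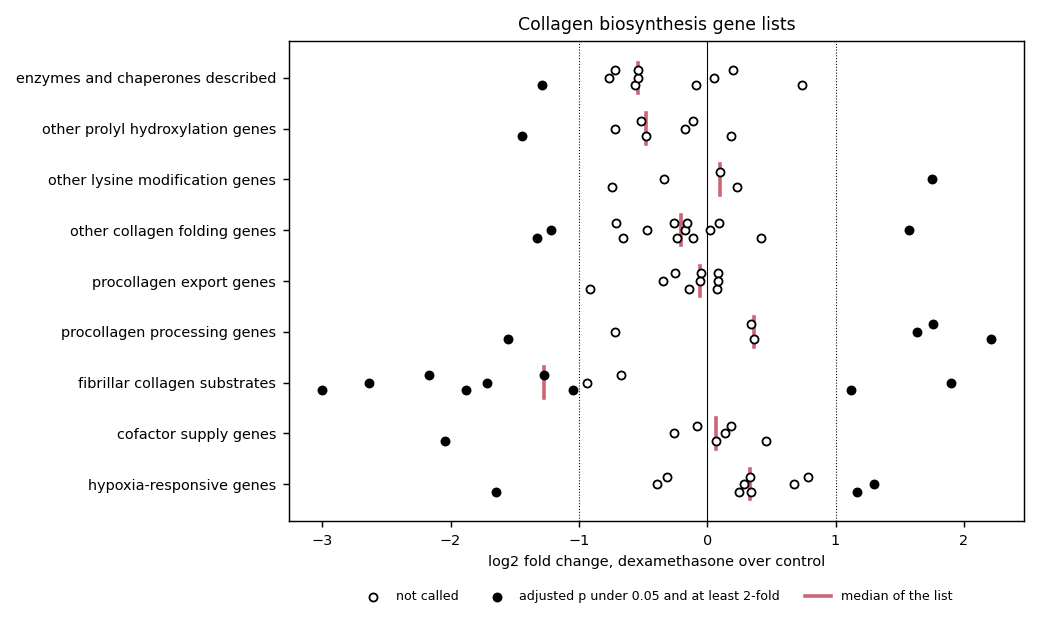
Log2 fold changes (horizontal axis) of every tested gene in the 10 enzymes and chaperones and the 8 functional lists (marker lists are not drawn), filled where the limma adjusted p-value was under 0.05 and the log2 ratio at least 1 in either direction (dotted lines), with the median of each list as a red bar. Among the lists drawn, the fibrillar collagens sit farthest to the left with a median of -1.27, the 10 enzymes and chaperones have a median of -0.54, and the processing genes one of 0.36.

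Markers of cell types were examined beside these values, and Bglap, Cdh5, Tie1, Ptprc, Col9a1 and Matn1 are named here as defining markers, chosen after their values were seen. Of 8 osteoblast markers, 7 fell and were differentially expressed, while Phex, chosen after its values were seen, rose, and the summed level of the list, most of it Col1a1, was at most 291418 normalized counts with dexamethasone and at most 1021869 in control. Bglap, a gene of the Osteocalcin by which the cells were sorted, had 107 ± 12.9 normalized counts in control and 12.2 ± 2.80 with dexamethasone (SD, n = 3 each). These counts, which cover the row of Bglap alone, are few beside Runx2 (means of 15301 and 4541) and Sp7 (7655 and 2102). Among osteocyte markers 2 of 3 tested genes rose, Dmp1 and Pdpn. The mean of Dmp1 rose from 38.5 to 5639 normalized counts (log2 ratio 7.16, adjusted p by limma 2.12e-28). Pdpn rose from 8165 to 13074 (log2 ratio 0.68, adjusted p by limma 2.8e-14). Mepe went the other way and did not pass the test (log2 ratio -0.77, adjusted p by limma 0.0749). The osteocyte genes Sost and Fgf23 were not found by symbol, so they gave no value. The list, most of it Pdpn, summed to between 8046 and 8558 in control and between 18169 and 19488 with dexamethasone. The endothelial list, most of it Kdr, summed to between 381 and 417 normalized counts in control and between 456 and 491 with dexamethasone. Of 4 tested genes 2 were higher. These were Kdr (means of 348 and 414, log2 ratio 0.25, adjusted p by limma 0.00812) and Pecam1 (15.7 and 26.3, log2 ratio 0.74, adjusted p by limma 0.0419). Egfl7 and Tek did not pass the test, and the defining genes Cdh5 and Tie1 had means under 3. The hematopoietic list summed to between 259 and 319.5 in control and between 1341 and 1443 with dexamethasone, with 3 of 5 tested genes higher and 2 lower. Cd68, Itgb2 and Cd53 rose with log2 ratios of 1.78, 3.20 and 4.11. Coro1a and Laptm5, the latter chosen after its values were seen, fell with log2 ratios of -1.77 and -1.49. The pan-leukocyte gene Ptprc had means of 2.48 and 4.71. The chondrocyte list summed to between 5949 and 6403 in control and between 22111 and 24968 with dexamethasone, with 2 of 3 tested genes higher (Sox9 and Col2a1) and 1 lower, while the cartilage matrix genes Acan, Col9a1 and Matn1 had means under 3. Of 5 tested fibroblast and tendon markers 3 were lower and 1 higher, with summed levels between 6299 and 6662 in control and between 2754 and 2901 with dexamethasone. The smooth muscle and pericyte list, almost all of it Acta2 and Pdgfrb, summed to between 162837 and 171940.0 in control and between 32435 and 35442 with dexamethasone. Of 5 tested genes 2 were lower, Acta2 with a log2 ratio of -3.54 and Myh11 with one of -0.89 (means of 44.2 and 24.8). Pdgfrb (log2 ratio -0.08) and Tagln (means of 55.9 and 59.5, log2 ratio 0.06) did not pass the test. Neither did Rgs5, chosen after its values were seen (means of 12.3 and 21.1, log2 ratio 0.72, adjusted p by limma 0.0511). The part of these shifts in the values of the 10 genes was not tested.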

How the data were processed

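RNA was sequenced in 3 control and 3 dexamethasone libraries. Per the submitters' processing notes and the study's methods, the authors used STAR 2.7.10a for alignment to GRCm39 and DESeq2 1.36.0 for normalization. The deposited values are a signal, read counts divided by a size factor per library. The value of 1 read was found in each library, and 100% of values came out as whole reads (tolerance 0.001). All columns were used (0 left out).

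Symbols (28087 genes), exon lengths and overlaps came from GENCODE M21, which may not be the authors' annotation, so no coordinates are given from it. The promoter coordinates are those of GRCm38.p6, not of the authors' GRCm39. Normalized counts plus 1 were log2-transformed and compared with limma 3.58.1 (lmFit, eBayes with trend) in R 4.3.3. The 17442 genes whose mean reached 10 were tested, with Benjamini-Hochberg adjustment over all of them. The study's own thresholds defined differential expression, an adjusted p-value under 0.05 and a change of 1 or more on the log2 scale. The pseudocount shrinks fold changes where reads are few, and intervals cover only the spread between libraries. Relative values subtract the log2 sum of Col1a1 and Col1a2 before the same fit. Shares were compared with exact permutation tests.

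Named genes are the 10, Col1a1 and Col1a2, and up to 4 genes per list with the highest mean. Any other gene given with its expression is marked as chosen after its values were seen. The genes and lists were chosen with earlier results of these data known. The fits were tested on simulated counts. Alternatives were other pseudocounts (0.5, 5), filters (none, mean of at least 100), scalings, limma without trend, edgeR 4.0.16 and DESeq2 1.42.0 on recovered reads, a replicate block, and each library left out.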

Additional observations from a re-analysis of the deposited data

How the results depend on the processing

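Over 16 alternatives, P4ha1, P4ha3, Plod2, Lox, Serpinh1 and Fkbp10 kept their direction and stayed past the adjusted p-value of 0.05 in each, and Plod2 was the 1 gene of the 10 called in each setting with the fold requirement. With an adjusted p-value under 0.05 alone, 7 of the 10 genes passed (2 higher, 5 lower) against 1 (0 higher, 1 lower), and 12645 of all genes (6497 higher, 6148 lower) against 3894 (2037 and 1857), by construction. At a mean of at least 100 normalized counts 2170 genes were called (1350 higher, 820 lower), fewer genes being tested, and Loxl2 gave no value there. Fits without 1 library called from 3888 to 3922 genes, 1953 to 2099 of them higher and 1795 to 1942 lower. Higher genes made up 52.3% of calls, against 45.1% with equal totals and 62.2% under the stricter filter. After quantile normalization 8 of the 10 genes passed an adjusted p-value of 0.05, against 7, with 1 higher (Lox) against 2 and 7 lower against 5, since P4ha2 and Plod1 passed and Plod3 did not. Equal totals moved the median of all genes to -0.11 and quantile normalization to -0.08, and log2 ratios under those scalings are to be read against these.

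P4ha2 (0.05) reversed to -0.0641 with equal totals, above that median, and to -0.149 after quantile normalization, below it. The share of Lox (-1.67 percentage points) reversed to 0.974 after quantile normalization. The median of the further lysine modification genes (0.10) reversed to -0.0115 with equal totals and to -0.0538 after quantile normalization, both above the median of all genes, and that of the cofactor supply genes (0.07) to -0.0474, -0.109 and, at a mean of at least 100, -0.00583. With Col1a1 alone as the reference, 9 of the 10 genes were called relative to collagen, 9 of them higher, against 4, since Col1a1 fell more than Col1a2. The range without 1 library was 4 to 5. Relative to collagen, Loxl2 (0.84, limma adjusted p = 0.0127) no longer passed an adjusted p-value of 0.05 without control replicate 2 (0.65, limma adjusted p = 0.0823). The cause was not tested where none is given.

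Replicate numbers carried no pairing: deviations from the group means correlated at -0.0999, -0.105 and -0.0199 between libraries of equal number. A replicate block gave 3897 called genes, 2035 of them higher and 1862 lower, and changed no call among the 10 genes. Depth limits Loxl2, with 15 to 42 reads per library.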
